A study of Sus scrofa domesticus with 4 samples.

Results

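Genes that mark epithelium or uterine secretion, namely EPCAM, CDH1, KRT8, MUC4, UABP-2, ACP5, STC1, SPP1 and RBP4, were followed across adiponectin-treated and non-treated explants of pig myometrium, the muscular wall of the uterus. They were found through the RefSeq accession of each array probe, and these 9 genes are 9 of 3029 genes that could be named on the array. Together they had 36 of its 43603 probes, of which 16 belong to EPCAM, 4 each to ACP5 and SPP1, 3 each to KRT8 and RBP4, 2 each to CDH1 and MUC4, and 1 each to UABP-2 and STC1. The genes were chosen by name, with their treated over non-treated ratios on these same 4 arrays known, so those ratios are given as a description. The fit below covers all probes of the array, and its counts for these genes are printed beside the counts for all probes with nothing read from them.

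The treated explants received adiponectin, a hormone made mainly by fat tissue, at 10 µg/ml for 24 h, and the non-treated explants were kept for the same time without it. Both came from 4 mature Large White x Polish Landrace gilts, aged 7 to 8 months, on days 15 to 16 of gestation, and were slices of about 100 mg that had first been held for 2 h in 2 ml of medium. Each of 4 Agilent 2-colour arrays held 1 treated and 1 non-treated RNA, and the dye fields of the labels give Cy5 to the treated RNA of arrays 1 and 3 but Cy3 to that of arrays 2 and 4. The text of the labelling protocol names Cy5 alone for treated RNA, so every direction given here rests on the dye fields. No label links an array, or its pair of RNAs, to a gilt, so each p-value reflects how these 4 arrays varied, and some of that variation may be technical. Slide 1, read in scan 1, carried the first 3 arrays, and slide 2, read in scan 2, carried array 4.

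Myometrium itself has no epithelium. The endometrium next to it is lined by luminal epithelium and filled with glands, whose cells are joined by EPCAM and E-cadherin, are braced by keratins and carry mucins on their surface. In the pig, where the conceptus attaches without invading, the glands secrete the proteins that feed it, and around attachment the epithelium that faces the conceptus makes osteopontin and stanniocalcin. In a bulk sample, more epithelial cells and more RNA per epithelial cell cannot be told apart.

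The tissue label was checked first. Of 15 smooth muscle genes, 9 had a named probe and all 9 were bright enough to be tested, among them ACTA2, CNN1, DES and MYLK, each well above background in every treated and non-treated RNA. Of 31 other epithelial genes, 9 had a named probe and 6 were tested. Of the remaining 3, LTF was well above background on 2 arrays in treated and 2 in non-treated RNA, and SOX9 and PIGR on 0 arrays. Of 13 conceptus trophoblast genes 11 had a named probe. IL1B, GATA2, HAND1, CYP19A1 and APOA1 were well above background in every treated and non-treated RNA, GATA3 and TFAP2C on some arrays, and IFNG, CDX2, CYP17A1 and AFP on 0 arrays. No erythrocyte gene of the list had a named probe.

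Levels are given as processed signals scaled so that the 75th percentile of the tested probes was the same in all 8 RNAs. They can be compared between RNAs for 1 probe, but not between probes. A probe was tested when it was well above background on at least 3 arrays in treated or in non-treated RNA and had a ratio on every array. All 9 genes had a tested probe and 33 of the 36 probes passed, while 1 probe each of CDH1, KRT8 and MUC4 was too dim.

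The clearest feature of the epithelial genes was a difference between arrays that both RNAs shared. EPCAM, an adhesion protein of simple epithelia, had median scaled signals over 15 probes of 74.96, 1395, 202 and 183 in treated RNA on arrays 1 to 4, against 80.8, 631, 448 and 102 in non-treated RNA. Each EPCAM probe on array 2 was also set against its mean log2 signal on the other 3 arrays. The median excess over probes was 10.4-fold in treated RNA and 4.52-fold in non-treated RNA. Array 4 had the same dye layout as array 2 but another slide and scan, and both of its RNAs lay far below those of array 2. The part of dye, slide or scan in these levels was not tested. The 16th EPCAM probe was set apart because its spot on array 4 lay on a bright patch: the median spot intensity was 8869 in the treated channel and 1614 in the non-treated channel, below local backgrounds of 9466 and 1618.

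**Figure D1:**
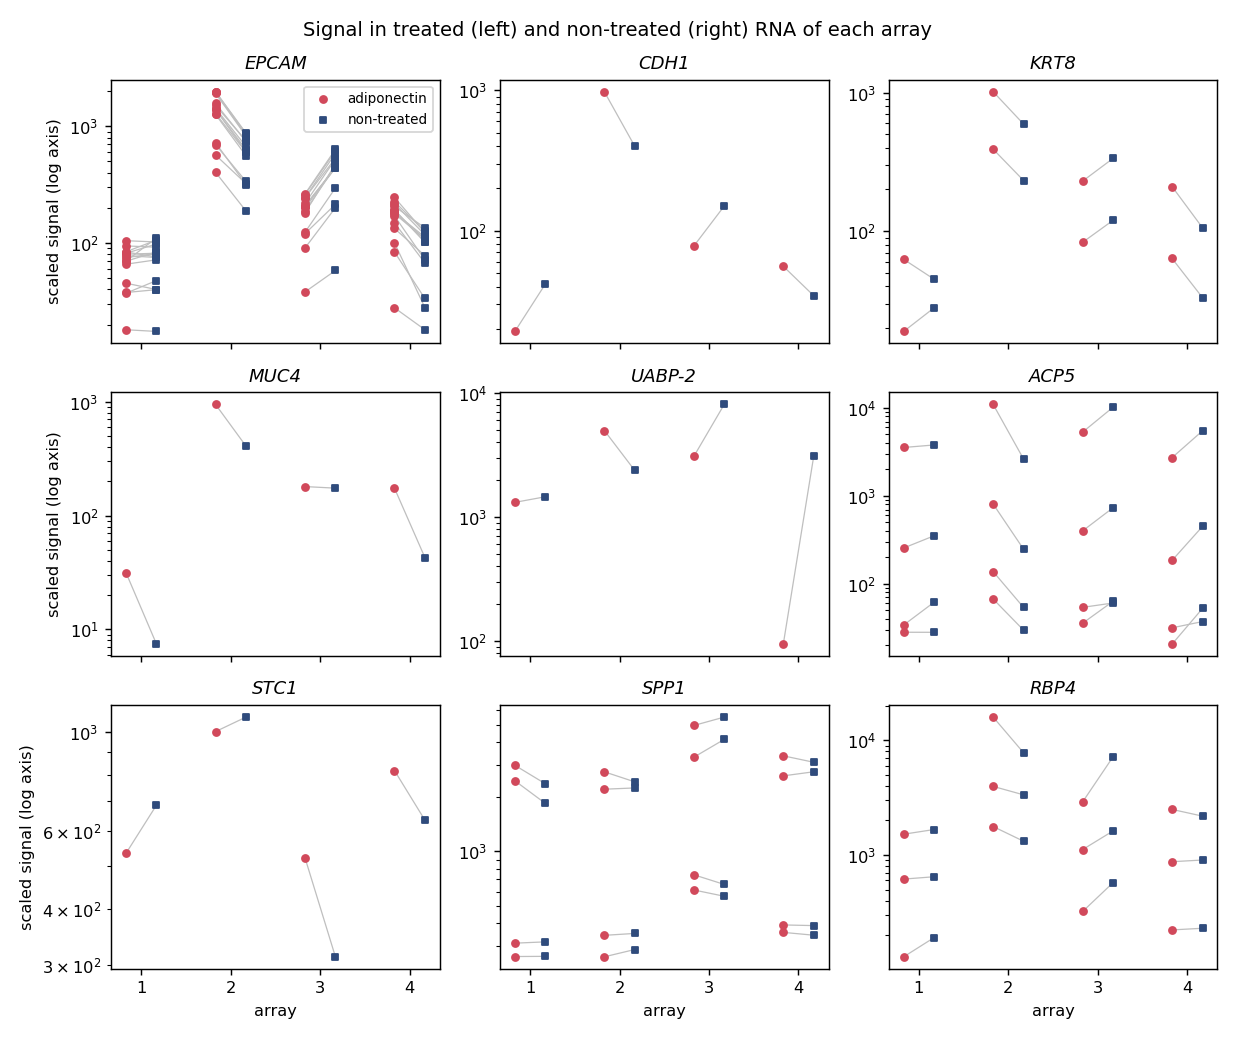
Scaled signal on a log axis in adiponectin-treated RNA (red circles, left) and non-treated RNA (blue squares, right) of arrays 1 to 4, with 1 pair of points per tested probe, joined by a grey line, and the EPCAM probe on the bright patch left out. EPCAM, CDH1, KRT8, MUC4 and RBP4 are highest on array 2 in both RNAs, whereas SPP1 is highest on array 3 and UABP-2 has its lowest value, 94.3, in treated RNA of array 4.

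CDH1, which encodes E-cadherin of the adherens junction, had scaled signals of 19.2, 976, 77.7 and 55.8 in treated RNA on arrays 1 to 4, against 41.7, 399, 150 and 34.5 in non-treated RNA. KRT8, a keratin of simple epithelia, had 62.7, 1014, 230 and 210 in treated RNA, against 45.0, 592, 335 and 106 in non-treated RNA. MUC4, a membrane mucin, had 31.4, 948, 180 and 174 in treated RNA, against 7.42, 408, 174 and 42.8 in non-treated RNA. Array 2 was the highest in both RNAs for all 3 genes, and array 1 the lowest in treated RNA. In non-treated RNA the lowest array was 1 for KRT8 and MUC4 and 4 for CDH1, and MUC4 was not well above background in non-treated RNA of array 1.

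RBP4 followed the same order although it is a secreted protein. It carries retinol, and in the pig uterus it is released by the glands and by the conceptus. Its brightest probe had 1518, 15920, 2901 and 2496 in treated RNA on arrays 1 to 4, against 1668, 7778, 7172 and 2183 in non-treated RNA. Its level on array 2, as the log2 mean of both RNAs, was set against the log2 mean of the other arrays. The median excess over 3 probes was 4.33-fold. The same measure was 6.73 for EPCAM, 12.2 for CDH1, 6.16 for KRT8 and 10.1 for MUC4.

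The excess on array 2 placed these 5 genes near the top of the array. Among 22133 tested probes, their probes, with the EPCAM probe on the bright patch left out, lay between the 98.98th and the 99.91st percentile for the level on array 2 minus the mean of the others. For array 1 they lay between the 0.145th and the 1.42nd percentile. All 5 genes had the order array 2, 3, 4 and 1. Of the 9 genes 6 were highest on array 2, as were 963 of 2134 named genes (45.1%). By probe the count was 24 of 33, against 32.3% of all tested probes. These percentiles describe 4 arrays and are not a test.

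The other secretory genes had other orders. UABP-2, a uterine serpin that associates with uteroferrin, had 1311, 4975, 3074 and 94.3 in treated RNA on arrays 1 to 4, against 1454, 2369, 8076 and 3080 in non-treated RNA. ACP5 encodes uteroferrin, the iron-binding purple acid phosphatase that pig glands secrete. Its brightest probe had 3552, 10973, 5309 and 2724 in treated RNA, against 3795, 2624, 10193 and 5494 in non-treated RNA. Both genes were highest on array 2 in treated RNA and on array 3 in non-treated RNA. Array 4 held the lowest treated value of each gene, but a non-treated value second only to that of array 3.

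SPP1 encodes osteopontin, a secreted integrin ligand that macrophages make as well as the luminal epithelium. Its brightest probe had 2986, 2749, 4955 and 3369 in treated RNA on arrays 1 to 4, against 2363, 2419, 5513 and 3104 in non-treated RNA. STC1, the hormone stanniocalcin, had 534, 1002, 522 and 819 in treated RNA, against 685, 1079, 313 and 634 in non-treated RNA. Array 3 was the highest for SPP1 in both RNAs and the lowest for STC1 in both. Between the highest and lowest array the spread was 1.80-fold in treated and 2.33-fold in non-treated RNA for SPP1, and 1.92-fold and 3.45-fold for STC1. CDH1, for comparison, spread 50.9-fold in treated and 11.6-fold in non-treated RNA. Its lowest signals were low, at 19.2 in treated RNA of array 1 and 34.5 in non-treated RNA of array 4, so these spreads are less certain.

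**Figure D2:**
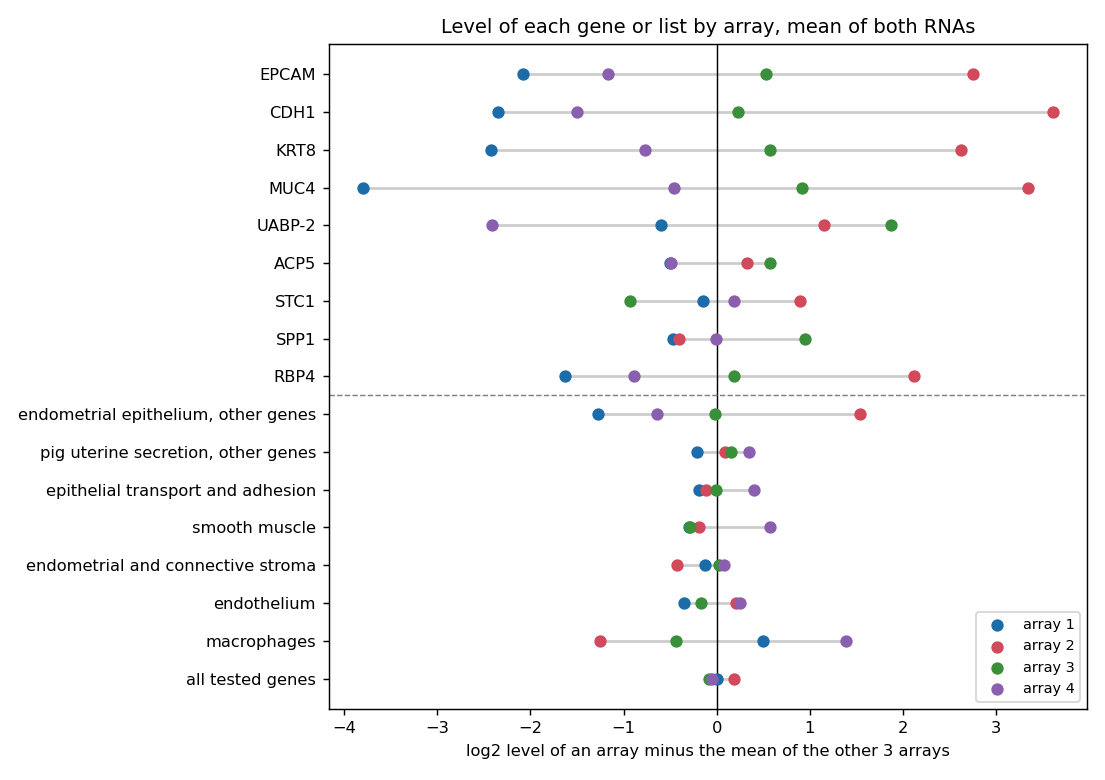
Level of each gene and of lists of other genes on each array, as the log2 mean of both RNAs minus the mean of the other 3 arrays (median over tested probes for a gene, EPCAM over 15 probes, and median over tested genes for a list). EPCAM, CDH1, KRT8, MUC4 and RBP4 span from array 1 on the left to array 2 on the right, and the median of all tested genes stays between -0.08 and 0.19.

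Of the other epithelial genes, CLDN4 and CLDN7 shared the order array 2, 3, 4 and 1. CLDN3 and OCLN were highest on array 2 but lowest on array 4, and MUC20 and JUP had other orders. Claudins of the tight junction were high on array 2 by 3.02 for CLDN3, 3.04 for CLDN4 and 2.54 for CLDN7 on the log2 scale, relative to the other arrays. OCLN, also of the tight junction, was high by 0.54. MUC20 was at 0.37 and JUP, a junction protein, at -0.16. MUC20 was highest on array 4, at 0.45, and JUP on array 1, at 0.69. The median of the 6 genes was -1.27, 1.54, -0.01 and -0.64 on arrays 1 to 4, and the summed signal ran from 1335 to 4841 in treated RNAs and from 1422 to 2856 in non-treated RNAs. SLPI, a protease inhibitor secreted by pig uterine glands, was at 0.49 on array 2 and 1.30 on array 3, and so lay nearer to UABP-2 and ACP5. The list of 15 other secretory genes had medians between -0.21 and 0.34, with CST3 between -0.05 and 0.09, CTSH between -0.69 and 1.43 and CTSB between -0.32 and 0.51. A list of epithelial transport and adhesion, with 6 tested genes, had medians of -0.19, -0.11, -0.01 and 0.40 on arrays 1 to 4, highest on array 4.

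Markers of other cell types were set beside these levels. Smooth muscle genes had median levels of -0.30, -0.19, -0.29 and 0.57 on arrays 1 to 4, and stromal genes of -0.13, -0.42, 0.02 and 0.08. The 8 tested macrophage genes had 0.49, -1.25, -0.43 and 1.39, which puts array 2 lowest. On array 2 CD163 was at -2.81, VSIG4 at -1.51 and MRC1 at -0.77, while CD14 was at 0.13, its highest. Endothelial genes had -0.35, 0.20, -0.17 and 0.25. The 5 tested conceptus trophoblast genes had -0.29, 0.65, 0.12 and -0.45, so their median was highest on array 2, where 45.1% of named genes were highest. There IL1B was at -0.26, GATA2 at 0.51, HAND1 at 1.06 and CYP19A1 at 0.65. Stromal examples on array 2 were PGR at -1.20, ESR1 at 1.18, DCN at 0.52 and LUM at -0.38. The part of tissue makeup in the levels of the 9 genes was not tested.

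The treated over non-treated ratios were compared next, array by array. A ratio is the log10 ratio that the scanner software gives, turned to log2 and to treated over non-treated, so that a positive value is higher in treated RNA. The scanner's own error of a single spot lay between 0.20 and 0.77 for the brightest probe of each gene. EPCAM ratios over 15 probes had medians of -0.08, 1.17, -1.16 and 0.88 on arrays 1 to 4. The probes ranged from -0.65 to 0.18 on array 1, from 0.84 to 1.25 on array 2, from -1.39 to -0.62 on array 3 and from 0.61 to 1.84 on array 4. All 15 probes were thus above 0 on arrays 2 and 4 and below 0 on array 3, while 6 were above and 9 below 0 on array 1. These probes share their RNA and are not separate replicates.

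**Figure D3:**
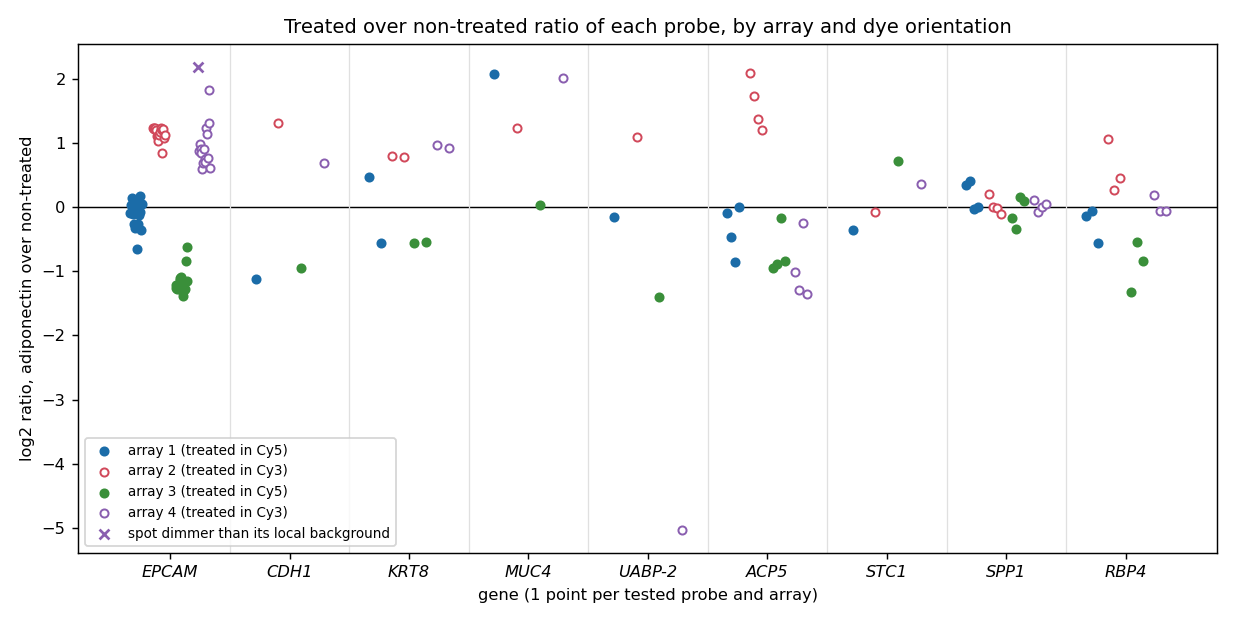
Log2 ratio of adiponectin-treated over non-treated RNA for each tested probe, by gene and array, with filled points where treated RNA was in Cy5 (arrays 1 and 3), open points where it was in Cy3 (arrays 2 and 4) and a cross for the EPCAM spot on the bright patch. EPCAM lies above 0 on arrays 2 and 4 and below 0 on array 3, SPP1 stays between -0.33 and 0.42, and UABP-2 reaches -5.03 on array 4.

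CDH1 ratios were -1.11, 1.32, -0.95 and 0.69 on arrays 1 to 4. For KRT8 the brightest probe gave 0.48, 0.81, -0.55 and 0.98, and the other tested probe -0.56, 0.78, -0.53 and 0.93, so the 2 probes differed in sign on array 1. The dimmer probe was not well above background in non-treated RNA of arrays 1 and 4. RBP4 ratios of the brightest probe were -0.13, 1.06, -1.31 and 0.19, and its other probes had the same signs on the first 3 arrays but were just below 0 on array 4. MUC4 ratios were 2.09, 1.25, 0.04 and 2.02. The 5 genes of the common level order were all higher in treated RNA on array 2 and all but MUC4 were lower in it on array 3. Over all 22133 tested probes the ratios of arrays 2 and 3 had a Pearson r of -0.31, and those of arrays 2 and 4 one of 0.255. The other pairs of arrays lay between -0.046 and 0.05.

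UABP-2 ratios were -0.14, 1.101, -1.40 and -5.03. On array 4 the spot of its single probe had a local background of 48.0 in the treated channel under a spot intensity of 374, against 35.0 under 4437 in the non-treated channel, and no outlier mark. ACP5 ratios of the brightest probe were -0.09, 2.10, -0.95 and -1.02, and all 4 of its probes were above 0 on array 2 and below 0 on arrays 3 and 4. The dimmer ACP5 probes, at -0.24 and -1.35 on array 4, were not well above background in treated RNA there. On array 4, therefore, UABP-2 and ACP5 were lower in treated RNA while EPCAM, CDH1, KRT8 and MUC4 were higher in it. SLPI, at -1.22, 1.22, -0.86 and -1.52, and CLDN3, at -0.71, 1.48, -1.73 and -1.79, had the same signs on all 4 arrays as UABP-2 and the brightest ACP5 probe. This grouping was noticed after the values were seen.

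SPP1 and STC1 had small ratios. The brightest SPP1 probe gave 0.34, 0.22, -0.16 and 0.11, and the other 3 probes lay between -0.33 and 0.42. STC1 gave -0.35, -0.08, 0.73 and 0.37. On array 3 STC1 was higher in treated RNA where EPCAM was lower. The brightest SPP1 probe had the signs of EPCAM on arrays 2, 3 and 4, but at most 0.22 in size there.

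Over the 4 arrays the members had no common direction. A fit with a treatment coefficient and a dye coefficient per probe gave a log2 change of 0.22 ± 0.24 (SE, n = 4 arrays) for the brightest EPCAM probe on clean background, and 0.53 ± 0.25 for the probe on the bright patch. It gave -0.01 ± 0.16 for CDH1, 0.43 ± 0.20 for KRT8 and 1.35 ± 0.35 for MUC4. For the secretory genes it gave -1.37 ± 0.93 for UABP-2, 0.01 ± 0.49 for ACP5, 0.17 ± 0.22 for STC1, 0.13 ± 0.15 for SPP1 and -0.05 ± 0.25 for RBP4. The 95% interval of UABP-2 reached from -3.68 to 0.95 and that of ACP5 from -1.21 to 1.23, whereas that of SPP1 reached from -0.24 to 0.50.

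Of the 33 tested probes of these genes, 0 were called at an adjusted p under 0.05 by limma. Among all 22133 tested probes 0 were called as well (0.00%, smallest adjusted p = 0.856), and 1264 (5.71%) had an unadjusted p under 0.05, 839 higher and 425 lower in treated RNA. Among the members 2 probes did, 1 of EPCAM and that of MUC4. Leaving out array 3 gave 12 calls over the whole table, with array 1 then alone in its dye orientation. The median change of the 9 genes was 0.13, with 6 above and 3 below 0, against -0.02 over the 2134 named genes.

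Several of these values rest on single arrays or on the way dim spots are treated. The change of UABP-2 was 0.16 without array 4 and -2.90 without array 2. For ACP5 it was 0.79 without array 4 and -0.77 without array 2, and for EPCAM, with the probe on the bright patch, 0.25 without array 1. MUC4 stood at 1.35 with scanner ratios and at 0.42 after normexp background correction and loess, which gave 0.05, 1.02, 0.05 and 0.57 on arrays 1 to 4. The gap between both sets of ratios was largest on array 1, where its signal in non-treated RNA was not well above background. After the same correction CDH1 ratios were -0.16, 1.24, -0.61 and 0.10 on arrays 1 to 4. The brightest EPCAM probe on clean background then gave 0.02, 1.16, -1.07 and 0.43. Signs were kept, but CDH1 shrank on arrays 1 and 4, and this EPCAM probe on array 4.

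For some of the genes the signs of the ratios also followed the dye. EPCAM, CDH1 and RBP4 were below 0 on arrays 1 and 3, with treated RNA in Cy5, and above 0 on arrays 2 and 4, with treated RNA in Cy3, with exceptions among the EPCAM probes on array 1 and the dimmer RBP4 probes on array 4. On each such array the Cy3 RNA had the higher signal. The signs -, +, - and + were found in 13 of 33 member probes, 10 of them of EPCAM and 1 each of CDH1, KRT8 and RBP4, and in 7.24% of all tested probes. By the brightest probe, 3 of the 9 genes had them, with the EPCAM probe on the bright patch, whereas the brightest EPCAM probe on clean background was at 0.04 on array 1. The count by probe mostly repeats EPCAM on the same RNAs, and its KRT8 probe is the dimmer tested one. The dye coefficient, as log2 Cy5 over Cy3, had a median of -0.84 over the 15 EPCAM probes and was -1.02 ± 0.16 for CDH1, -0.46 ± 0.20 for KRT8 and -0.67 ± 0.25 for RBP4. It was -0.04 ± 0.15 for SPP1 and 0.02 ± 0.22 for STC1. For ACP5 it was -0.53 ± 0.49, for MUC4 -0.29 ± 0.35 and for UABP-2, in the other direction, 0.60 ± 0.93. These coefficients come from scanner ratios. The CDH1 ratios on arrays 1 and 4 were smaller in size after normexp and loess.

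**Figure D4:**
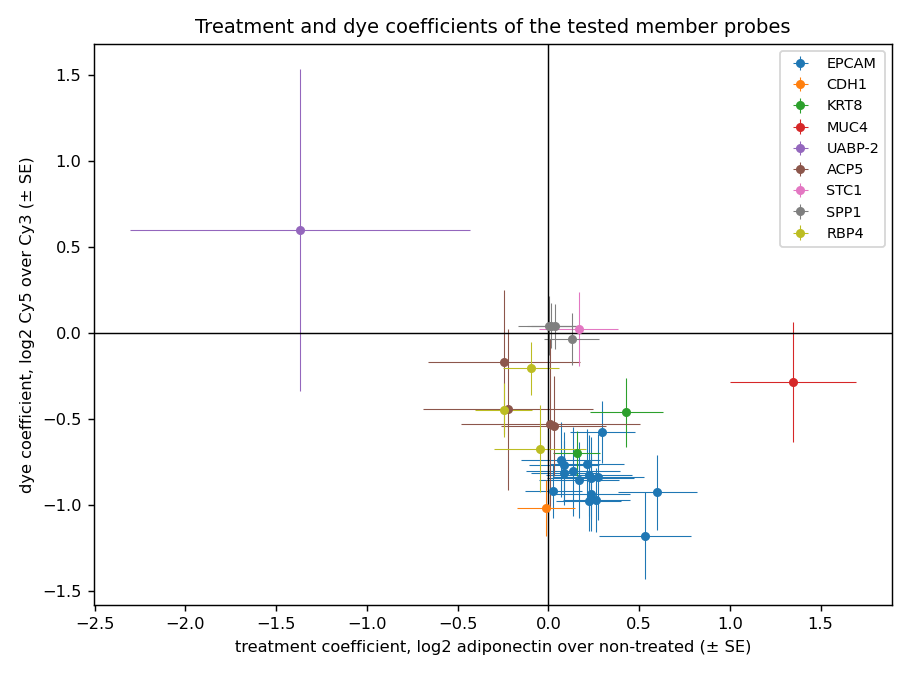
Treatment coefficient (log2 adiponectin over non-treated, x axis) and dye coefficient (log2 Cy5 over Cy3, y axis) of the 33 tested member probes, with bars of 1 SE. EPCAM, CDH1, KRT8 and RBP4 lie below 0 on the dye axis and between -0.25 and 0.60 on the treatment axis, SPP1 and STC1 lie near 0 on both, and UABP-2 at -1.37 and MUC4 at 1.35 lie apart on the treatment axis.

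The dye coefficient was tested over all probes in the same fit, but it comes from the same 4 ratios per probe that chose the genes, so it is not independent of that choice. Of the 33 member probes 0 passed (limma adjusted p of at least 0.504), as did 0 of all 22133 tested probes (0.00%). An unadjusted p under 0.05 was found for probes of 4 of the 9 genes, namely all 16 of EPCAM, including the one on the bright patch, 2 of RBP4 and 1 each of CDH1 and KRT8. That KRT8 probe was the dimmer one, not well above background in non-treated RNA of arrays 1 and 4. The share over all tested probes was 8.28%. Probes of 1 gene share their RNA, so nothing is read from the count. With 2 arrays per orientation, the dye and the explants hybridised in each orientation cannot be told apart. The size of the ratios differed within an orientation, at -0.08 on array 1 against -1.16 on array 3 for EPCAM.

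Ratios of other lists on the same arrays were placed beside those of the members, whose median ratio was -0.09, 1.101, -0.95 and 0.37. The 6 other epithelial genes had medians of -0.38, 0.68, -0.56 and 0.07 and 0 were called, with fitted changes of -0.69 for CLDN3, -0.17 for CLDN4, 0.16 for CLDN7 and 0.11 for OCLN. A separate list of epithelial transport and adhesion, with 6 tested genes, had medians of -0.13, -0.15, 0.25 and -0.26. On arrays 2, 3 and 4 these had the opposite sign to the member medians. Smooth muscle genes had -0.66, -0.10, 0.86 and -0.16, and all 9 were above 0 on array 3. There 4 of the 6 other epithelial genes were below 0, while MUC20 at 0.11, JUP at 0.03 and the member MUC4 at 0.04 were just above it. ACTA2 stood at 1.58 and DES at 1.104 on that array. Macrophage genes had 0.51, -0.26, 2.29 and 0.63. On array 3 CD163 was at 2.22, VSIG4 at 2.44 and MRC1 at 2.36, but CD14 at 0.07. The summed signal of the macrophage genes ran from 2013 to 9309 in treated RNAs and from 1710 to 5474 in non-treated RNAs. Stromal genes had 0.15, -0.12, -0.28 and 0.10. The part of these other cell types in the member ratios was not tested.

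Genes with the most similar pattern over the 4 arrays were taken from 623 named genes whose ratios spanned at least 1 log2 unit. The 6 with the highest Pearson r to the member median were SLC44A4, EIF2AK2, CLDN7, PLPP2, LCORL and POSTN, with r between 0.997 and 1.00. These values rest on 4 arrays and describe those arrays alone. SLC44A4, a choline transporter, had ratios of -0.22, 0.58, -0.74 and 0.11, and CLDN7 had -0.05, 1.06, -0.79 and 0.42. Both were also highest in level on array 2, by 2.06 and 2.54. POSTN, a matrix protein of stroma, had ratios of 0.05, 1.33, -0.85 and 0.68 but a level of -0.74 on array 2, and EIF2AK2, the interferon-induced kinase PKR, a level of 0.31.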

How the data were processed

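RNA of 4 treated and 4 non-treated explant samples was measured on 4 arrays. The deposited scanner files hold processed signal intensity per channel and a log10 ratio of Cy5 over Cy3, background-subtracted and dye-normalised by Agilent Feature Extraction 10.7.3.1, per the file headers. The deposited series table of log2 ratios matched those ratios, turned to treated over non-treated, within 0.01 for 100% of the values of 18169 probes bright in both channels, so its direction and scale were settled there. How its dim values were made is not given in the sources used here.

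Spots marked as outliers and 1417 control spots per array were left out, and spots of a probe were averaged. Probes were named by unversioned RefSeq accession from a gene table, used for names only, which named 6700 of the 7125 probes with an accession. Probe sequences were not analysed here. Ratios of 22133 tested probes were fitted with limma 3.58.1 under R 4.3.3 (treatment and dye coefficients, two-sided, Benjamini-Hochberg), a fit checked on simulated data. The brightest tested probe stood for a gene. Where genes of a list are named, the first 4 tested genes were taken. No gene is named from the epithelial transport and adhesion, endothelial and mesothelial lists. The 6 genes most like the member median by Pearson r were named too. MUC20, JUP, APOA1 and the genes named as too dim were named after their values were seen. The members, lists and rules were chosen with earlier results of these data known. The number of arrays limits the precision.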

Additional observations from a re-analysis of the deposited data

How the results depend on the processing

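Leaving out 1 array at a time gave between 0 and 12 called probes over the whole table, the 12 without array 3 (smallest limma adjusted p = 0.0198), against 0 with all 4 arrays. The number was 0 with normexp and loess, the deposited table, median centring, no dye term, no filter on dim probes, probes bright in both channels on all arrays, and probes on bright local background left out. These left the count of member probes with a called dye coefficient at 0 too, also without any 1 array, apart from the fit without a dye term, which gives none. Over the omissions the change of the EPCAM probe on the bright patch, at 0.53 with all 4 arrays, ran from 0.25 to 0.81, of CDH1 from -0.17 to 0.14, of KRT8 from 0.17 to 0.69, of MUC4 from 0.84 to 1.86, of UABP-2 from -2.90 to 0.16, of ACP5 from -0.77 to 0.79, of STC1 from -0.10 to 0.44, of SPP1 from 0.00 to 0.25 and of RBP4 from -0.34 to 0.25. The same EPCAM probe stood at -0.27 with normexp and loess, which subtracts the local background. EPCAM was at 0.22 as the median of its probes. The median of the endothelial genes ran from -0.19, without array 4, to 0.31, without array 2, and was 0.14 over all 4 arrays; the cause was not tested. The level of CDH1 on array 2 above the other arrays was 3.44 without scaling of the signals and 3.79 with scaling to the median, against 3.61. Those 2 settings, the median over probes and leaving out probes on bright background were chosen after seeing the data. Slide as a random block could not be fitted because slide 2 held 1 array. The fit without array 4 is the one within slide 1. The ratios already pair a treated with a non-treated RNA within each array. No paired analysis was possible because no label links the RNAs to gilts, so a block by animal could not be added. A dim spot in non-treated RNA of array 1 limits MUC4.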
